A study of Mus musculus with 12 samples.

Results

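A set of 9 growth-promoting oncogenes was read for DNA copy level in the IgG background of mpkCCD cells. They were Myc, Mycn, Mdm2, Hras, Egfr, Met, Ccnd1, Cdk4 and Tert, 9 of the 23870 named genes with an interval, listed by name, by a rule that uses no measured value. Each was represented by its longest transcript interval, introns included. Its level was the number of reads per kb divided by that of the median interval of at least 5 kb. The median was taken either on all autosomes or on the gene's own chromosome. A level of 1 is thus the typical read density of the line. Where density follows copy number, 1.5 corresponds to 3 copies over 2. In a line with more than 2 copies of each chromosome, 1 added copy would raise the level by less. The question was whether the immortalized line carries extra copies of any of them. No separate measure of DNA amount, such as input DNA or a karyotype, was used here.

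mpkCCD clone 11 is a transformed mouse line of renal principal cells, the cells of the collecting duct that answer vasopressin, and a line derived from 1 clone stands for that clone only. Cells at passages 6 to 10 were kept with 0.1 nM dDAVP, an analog of vasopressin selective for the V2 receptor, or with vehicle alone through the whole culture, on permeable supports, and were harvested 24 h after the serum was withdrawn. Both groups had the same line, medium and serum withdrawal and no engineered allele is named, and each had 3 experiments with an IgG antibody. The 6 Pol II samples of the series were not analysed here. IgG pulls down chromatin with little selection, and its reads are no measure of transcription, so the identity of the cells could not be checked against marker genes.

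Cells in tumours often gain copies of genes that push growth. MYC and MYCN are transcription factors that drive growth programmes, RAS and the receptor kinases EGFR and MET carry growth factor signals from the membrane, and cyclin D1 with its kinase CDK4 opens the way from G1 into S phase. MDM2 marks p53 for degradation, and TERT is the catalytic subunit of telomerase, which maintains chromosome ends in cells that divide without limit. A gain can cover the gene and its close neighbours (a focal amplification) or a whole chromosome, which is why each gene was also set against both.

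Base composition separates these genes, and the read density of genes moved with it, most strongly in 1 library. The 9 intervals held from 41.7% G and C in Met to 59.3% in Hras. The stretch of 150 bases nearest in composition to the whole interval is shown for 3 of them, 5′ to 3′ on the gene's strand of mm10, with G and C in capitals, so that the composition of genes whose density was high or low in that library can be seen.
Hras: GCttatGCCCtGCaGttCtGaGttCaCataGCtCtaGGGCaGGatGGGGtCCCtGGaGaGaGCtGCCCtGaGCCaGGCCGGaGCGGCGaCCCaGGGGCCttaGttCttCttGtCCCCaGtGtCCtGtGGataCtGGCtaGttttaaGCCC
Mycn: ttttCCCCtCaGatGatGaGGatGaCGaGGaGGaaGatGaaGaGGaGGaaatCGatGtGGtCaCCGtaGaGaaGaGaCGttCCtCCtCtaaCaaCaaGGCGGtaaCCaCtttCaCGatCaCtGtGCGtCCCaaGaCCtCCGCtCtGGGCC
Met: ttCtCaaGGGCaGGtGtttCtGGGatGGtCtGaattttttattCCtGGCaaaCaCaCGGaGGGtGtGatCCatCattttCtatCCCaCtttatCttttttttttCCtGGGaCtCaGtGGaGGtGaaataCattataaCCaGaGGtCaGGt
The Hras stretch lies at chr7:141191754-141191903 on the minus strand, within an intron, and 59.3% of its bases are G or C. The Mycn stretch lies at chr12:12937473-12937622 on the minus strand, with 138 coding and 12 intronic bases and 52.7% G and C. The Met stretch lies at chr6:17464567-17464716 on the plus strand, within an intron, with 42% G and C.

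Total counts over all intervals ran from 10588927 to 19748658 per library, and the median interval held 92 to 155 reads. dDAVP experiment 3 stood apart from the other 5 libraries. Its median density in the GC-richest decile of genes was 7.30 times that in the poorest decile, against 0.483 to 0.840 elsewhere, and each of its reads covered 20.9 bases of interval against 30.5 to 37.5. Vehicle experiment 3, with the 0.483, also differed from vehicle experiments 1 and 2 (chi-square over its degrees of freedom 5.14 and 5.22). Experiments 1 and 2 of a group differed by no more than sampling noise (1.01 for either pair), so each pair was treated as 1 sample, giving 2 samples per group and 4 in all. A GC-matched level was therefore added, in which the reference was the median autosomal interval within 2.5 percentage points of the gene's own GC content. Nothing says that the experiments were separate cultures, so spreads and p-values measure these samples only, and counting intervals take each read as independent although some may be copies of 1 molecule.

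The 2 MYC genes lay near the autosome median in 5 libraries and well above it in dDAVP experiment 3. Myc spans 61985341 to 61990361 on chromosome 15, plus strand, 5.02 kb with 3 exons, and held 26 to 103 reads. With dDAVP its level was 1.035 in experiment 1, 1.29 in experiment 2 and 2.22 in experiment 3. With vehicle it was 0.880, 0.830 and 0.855, in the same order, which is kept below. The dDAVP libraries were all above the vehicle libraries for Myc, by little in experiment 1. Matched on GC, Myc stood at 1.146, 1.43 and 1.02 with dDAVP and at 1.04, 0.976 and 1.19 with vehicle, and the groups overlapped. Mycn, the paralog best known from neuroblastoma, spans 12936093 to 12941836 on chromosome 12, minus strand, 5.74 kb with 3 exons, and held 30 to 177 reads. Its level was 0.883, 1.34 and 3.33 in the dDAVP libraries and 0.796, 0.949 and 0.926 in the vehicle libraries. The value of 3.33 was the only one of Mycn past 1.5, and GC matching brought it to 1.56 beside 0.926 to 1.47 in the other 5 libraries.

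Mdm2, the ubiquitin ligase that holds p53 down, was the steadiest of the 9 once GC was matched. It spans 117688875 to 117710758 on chromosome 10, minus strand, 21.9 kb with 11 exons. Its level was 1.07, 1.10 and 0.731 with dDAVP and 1.045, 1.11 and 1.18 with vehicle, so dDAVP experiment 3 was the low library here. After GC matching all 6 values lay between 0.988 and 1.10, with a mean of 1.05 ± 0.03 (SD, n = 4). Summed over the 6 libraries, 1092 Mdm2 reads were counted where GC-matched intervals gave 1044, a ratio of 1.046 with a 95% counting interval of 0.984 to 1.11. That interval covers counting error only, and genes of 10 to 30 kb spread from 0.542 to 1.66 in their central 95%.

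Hras, the small GTPase that relays receptor signals, was low in 5 libraries. It spans 141189934 to 141194004 on chromosome 7, minus strand, 4.07 kb with 5 exons, and is 1 of 2 genes shorter than the 5 kb asked of the reference. With 8 to 51 reads per library its level was 0.3425, 0.455 and 1.35 with dDAVP and 0.562, 0.315 and 0.459 with vehicle. Only dDAVP experiment 3 lay above 1 for Hras, the gene of the stretch richest in GC printed above. In vehicle experiment 2 the level of Hras rested on 8 reads, and its 95% counting interval ran from 0.136 to 0.621. Matched on GC, its 6 values ran from 0.416 to 0.849, with a mean of 0.619 ± 0.165 (SD, n = 4), over only 234 reference intervals as rich in GC.

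Both receptor kinases were long, poor in GC and slightly below the median. Egfr, the receptor of epidermal growth factor, spans 16752203 to 16913907 on chromosome 11, plus strand, 161.7 kb with 28 exons. Its 495 to 1672 reads gave levels of 0.840, 0.8515 and 0.331 with dDAVP and 0.823, 0.8865 and 0.965 with vehicle. Met, the receptor of hepatocyte growth factor, spans 17463957 to 17573980 on chromosome 6, plus strand, 110.0 kb with 22 exons, and stood at 0.843, 0.87 and 0.390 with dDAVP and 0.874, 0.883 and 0.877 with vehicle. In 5 libraries each of these genes kept within a narrow band, and in dDAVP experiment 3 each was below all of them. GC matching brought the dDAVP experiment 3 value to 0.5445 for Egfr and 0.664 for Met, still the lowest of their 6. Read most deeply of the 9, they had the tightest counting intervals, 0.771 to 0.811 for Egfr and 0.769 to 0.818 for Met over the 6 libraries, with ratios of 0.791 and 0.793 to GC-matched intervals.

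The G1 cyclin and its kinase lay at opposite ends. Ccnd1, the gene of cyclin D1, spans 144929931 to 144939925 on chromosome 7, minus strand, 9.995 kb with 5 exons, and shares 20 bases with Mir3962. Its 27 to 113 reads gave levels of 0.545, 0.358 and 1.22 with dDAVP and 0.412, 0.722 and 0.3175 with vehicle. Cdk4 spans 127063603 to 127067282 on chromosome 10, plus strand, 3.68 kb with 8 exons, and is the other gene under 5 kb. With 11 to 120 reads its level was 1.34, 1.15 and 3.52 with dDAVP and 0.787, 0.479 and 1.19 with vehicle. The level of 3.52 was the highest of any of the 9 genes in any library, and it came from dDAVP experiment 3. Matched on GC, Cdk4 ran from 0.542 to 1.74, the widest range of the 9, with a mean of 1.34 ± 0.45 (SD, n = 4), while Ccnd1 ran from 0.396 to 0.850 with a mean of 0.543 ± 0.095 (SD, n = 4).

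Tert, the reverse transcriptase of telomerase, was low in every library once GC was matched. It spans 73627001 to 73649041 on chromosome 13, plus strand, 22.04 kb with 16 exons. Its 65 to 214 reads gave levels of 0.621, 0.607 and 1.05 with dDAVP and 0.4495, 0.531 and 0.563 with vehicle. The GC-matched levels of Tert were 0.641, 0.626 and 0.6015 with dDAVP and 0.479, 0.565 and 0.668 with vehicle, with a mean of 0.606 ± 0.062 (SD, n = 4). The highest of these lay just outside the lower margin of 0.667.

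**Figure D1:**
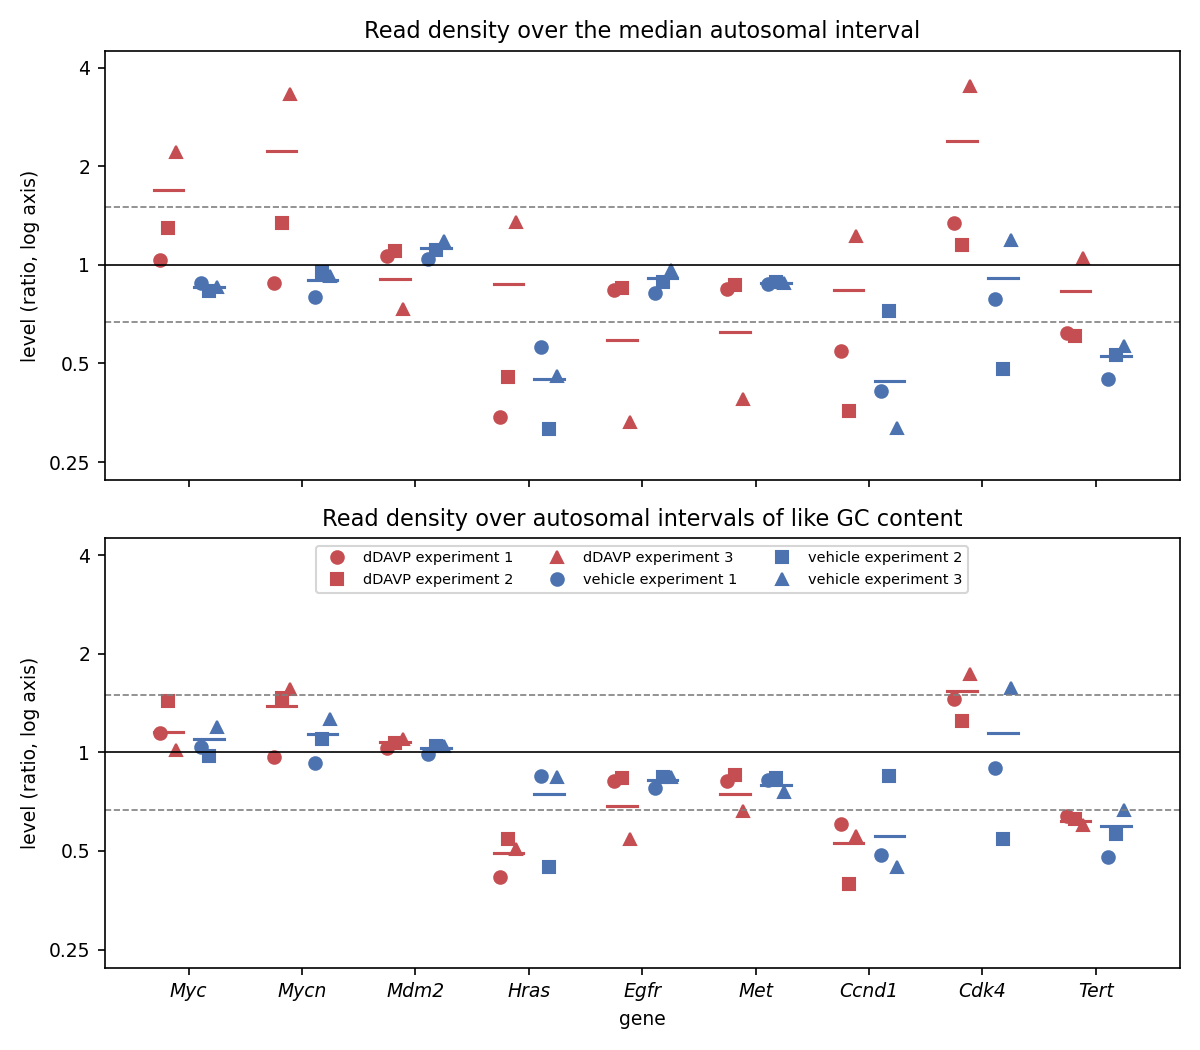
Level of each oncogene in the 6 IgG libraries, on a log axis, over the median autosomal interval (top) and over autosomal intervals of like GC content (bottom). Markers are libraries, horizontal bars are group means with experiments 1 and 2 averaged first (n = 2), the solid line is a level of 1 and dashed lines are 1.5 and 0.667. The triangles of dDAVP experiment 3 leave the other libraries in the top panel and lie closer to them in the bottom panel.

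None of the 9 genes was raised in every library. A gene was counted as raised at 1.5 or more in every library and as lowered at 1/1.5 or less in every library, and 0 of 9 met either rule against the autosome median, where 1.08% and 1.44% of 16539 autosomal genes of at least 5 kb did. Against its own chromosome 0 of 9 were raised and 0 of 9 lowered, where 0.363% and 0.242% of all genes were. Against GC-matched intervals the counts were again 0 and 0, with backgrounds of 2.07% and 3.62%. At a looser margin of 5/4 in every library 0 of 9 were raised by any of these 3 references, where 4.96%, 1.27% and 9.13% of all genes were. At 4/5 or less 0 of 9 were lowered against the autosome median or their own chromosome, where 5.75% and 0.828% were, and 1 gene, Tert, was lowered against GC-matched intervals, where 11.3% were. With shares this small in the background, 0 of 9 does not set these genes apart from other genes. The rule is also strict, since a gene truly at 1.5 can fall below it in a library by counting error. A gain of that size could thus go uncalled. The single library dDAVP experiment 3 could also decide a call, with Egfr at 0.331 and Hras at 1.35 of the autosome median there. Leaving out dDAVP experiment 3, Hras and Tert were lowered against the autosome median, 2 of 9 where 4.87% of all genes were, and 0 of 9 were raised, where 3.73% were. Against GC-matched intervals Tert was lowered without vehicle experiment 3, where 3.91% of all genes were, and Ccnd1 without vehicle experiment 2, where 4.09% were. By the mean of the 4 samples in place of every library, 2 of 9 were raised (Cdk4 and Mycn) and 2 lowered (Hras and Ccnd1) against the autosome median, where 10% and 8.28% of all genes were. By that mean 0 were raised and 3 lowered (Hras, Tert and Ccnd1) against GC-matched intervals, where 7.08% and 10.3% were. In the vehicle libraries alone 2 of 9 were lowered against the autosome median (Hras and Tert), where 7.18% were, and 1 against its chromosome (Tert), where 1.79% were.

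The order of the genes depended on the reference. By the mean over 4 samples against the autosome median, Cdk4 (1.65) and Mycn (1.56) came first, then Myc (1.27), Mdm2 (1.02), Met (0.751), Egfr (0.749), Tert (0.679), Hras (0.662) and Ccnd1 (0.639), and every gene overlapped the next in its range over the 6 libraries. Without dDAVP experiment 3 the order changed to Mdm2 (1.11), Cdk4 (1.02), Mycn (0.970), Myc (0.958), Egfr (0.889), Met (0.871), Tert (0.556), Ccnd1 (0.445) and Hras (0.432). After GC matching the order was Cdk4 (1.34), Mycn (1.26), Myc (1.13), Mdm2 (1.05), Met (0.7715), Egfr (0.755), Hras (0.619), Tert (0.606) and Ccnd1 (0.543). The ranges of neighbours in this order overlapped except those of Mdm2 and Met, and Mdm2 was above Met in 6 of 6 libraries. In the 6 libraries Myc, Mycn and Mdm2 lay at 0.926 or more, and Met, Egfr, Hras, Tert and Ccnd1 at 0.850 or less. Cdk4 spanned both ranges.

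Set against the 16538 autosomal genes of at least 5 kb with a GC-matched level, the 9 were spread from the low tail to well above the median. Hras and Cdk4 are shorter than 5 kb, so they are not among these genes or in the shares of autosomal genes given above. The central 95% of genes ran from 0.5435 to 1.67 with a median of 1.02. Cdk4 lay at percentile 85.3, Mycn at 79.96, Myc at 65.05 and Mdm2 at 55.1. Met and Egfr lay at 19.9 and 18.2. Hras, Tert and Ccnd1 were in the low tail, at 6.86, 5.90 and 2.455. Ccnd1 lay at the lower edge of the central 95% and the other 8 genes inside it. Genes of 5 to 10 kb spread somewhat more widely than genes above 100 kb, with central 95% ranges of 0.499 to 1.76 and 0.588 to 1.63.

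**Figure D2:**
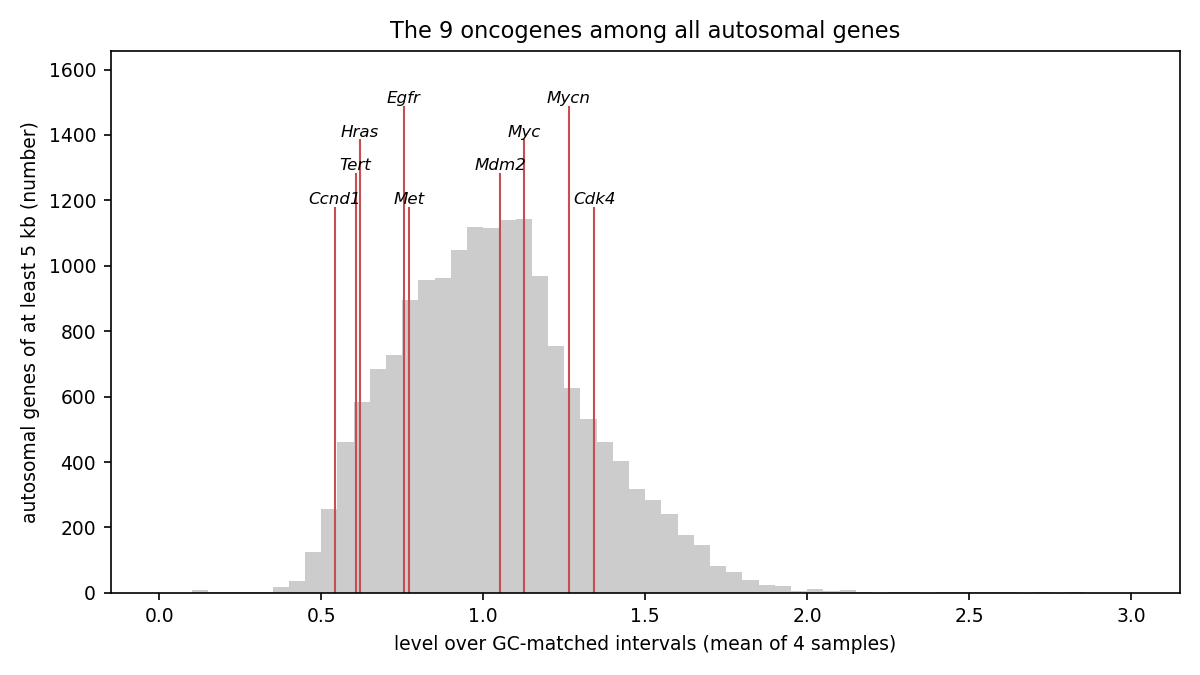
Number of autosomal genes of at least 5 kb by GC-matched level (grey, mean of 4 samples, bins of 0.05, values under 3), with red lines at the 9 oncogenes, whose heights are only for the labels. No oncogene lies in the upper tail, Cdk4 being the highest at 1.34 and Ccnd1 the lowest at 0.543.

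The departures of dDAVP experiment 3 followed GC content. Its level over the mean of the other 5 libraries was 0.448 for Met, 0.379 for Egfr and 0.664 for Mdm2, the 3 genes with under 43% GC, and each was below all 5. It was 1.89 for Tert, 2.265 for Myc, 2.59 for Ccnd1, 3.17 for Hras, 3.403 for Mycn and 3.56 for Cdk4, all with more than 49% GC and each above all 5. Across the 9 genes the log2 of this ratio correlated with GC content at r = 0.920 (rho = 0.717), and across 16536 autosomal genes at r = 0.912, as a description of 1 library over points that share its depth. The level of 3.52 of Cdk4 and that of 3.33 of Mycn were thus read in a library whose other GC-rich genes were high as well.

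**Figure D3:**
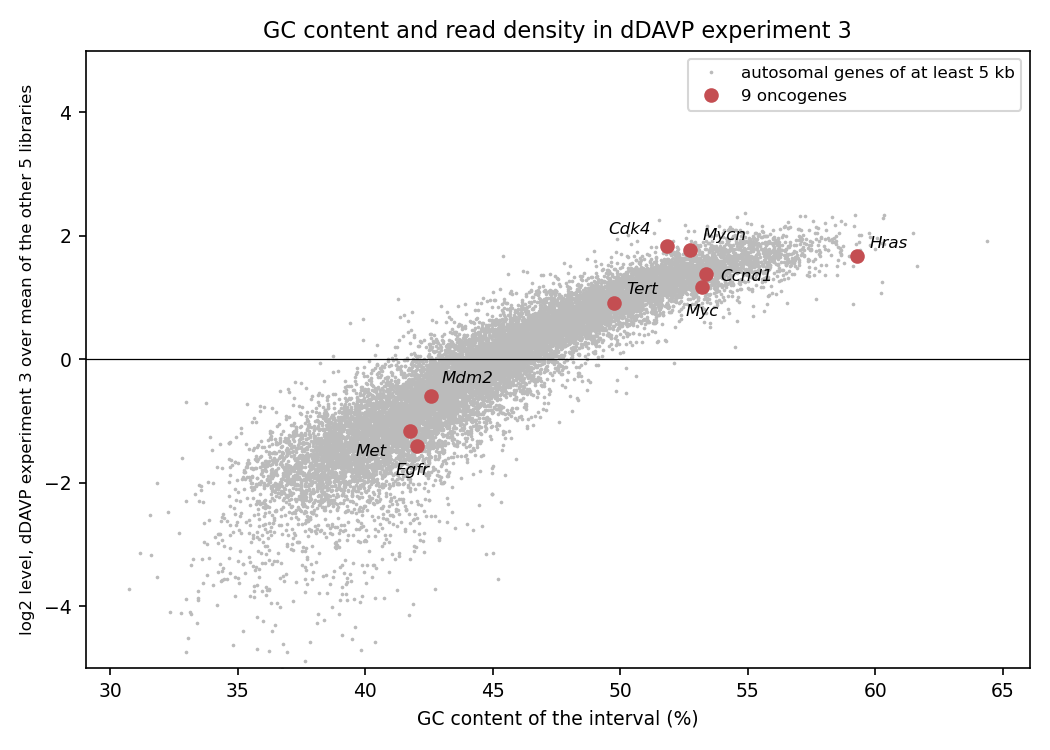
GC content of the interval (%) against log2 of the level in dDAVP experiment 3 over the mean level in the other 5 libraries, for autosomal genes of at least 5 kb (grey) and the 9 oncogenes (red). Met, Egfr and Mdm2 lie below 0 on the left and the 6 genes richer in GC lie above 0, within the cloud of all genes.

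The level of the chromosome varied among the oncogenes as well. Median GC-matched levels of the genes on these chromosomes (mean of 4 samples) were 1.41 for chromosome 12 with Mycn, 1.24 for chromosome 15 with Myc and 1.225 for chromosome 10 with Mdm2 and Cdk4. They were 1.028 for chromosome 11 with Egfr, 0.985 for chromosome 6 with Met, 0.852 for chromosome 13 with Tert and 0.6685 for chromosome 7 with Hras and Ccnd1. The 4 oncogenes above 1 were thus on the 3 highest of these 7 chromosomes, and Hras and Ccnd1 on the lowest. Of the 9, all but Cdk4 had a mean GC-matched level below the median of their chromosome. Against GC-matched intervals of their own chromosome, Mdm2 stood at 0.845, Egfr at 0.776, Met at 0.779 and Tert at 0.652 (mean of 4 samples), below 1 in all 6 libraries. The other 5 had libraries on both sides of 1, with Myc at 0.9065 (0.774 to 1.11), Mycn at 0.841 (0.631 to 1.02), Ccnd1 at 0.819 (0.598 to 1.28), Cdk4 at 1.06 (0.441 to 1.305) and Hras at 1.14 (0.809 to 1.69). The spread of the 9 narrowed from 0.543 to 1.34 against all autosomes to 0.652 to 1.14 within chromosomes. Tert remained the lowest, with 0.501 to 0.695 over the 6 libraries. The reference for Hras held only 22 intervals on chromosome 7 of like GC content.

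Genes next to the oncogenes were read for a shared gain. Within 1 Mb of Mycn lay 4 genes of at least 5 kb, and their median GC-matched level was 1.59 ± 0.02 (SD, n = 4), at 1.56 to 1.63 over the 6 libraries. At this distance it was the 1 neighbourhood of the 9 at 1.5 or more in every library, where 0.77% of 16488 genes had such neighbours. The call was lost at other distances, with medians of 1.40 (1.33 to 1.449) over the 2 genes within 0.5 Mb and 1.41 (1.20 to 1.49) over the 12 within 2 Mb. The nearest genes on either side were 4921511I17Rik, at 1.80, and Ddx1, an RNA helicase gene, at 1.32 and 277.5 kb from Mycn. Mycn itself stood below its neighbours, at 0.797 of their median, and the neighbours at 1.13 times the median of chromosome 12, or at 0.993 and 1.003 times that median within 0.5 and 2 Mb.

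Around Mdm2 the 19 neighbours had a median of 1.26, with Cpm, a carboxypeptidase gene 1.52 kb away, at 1.15 and Slc35e3 at 1.34. Around Cdk4 the 43 neighbours had a median of 1.17, with Eef1akmt3 at 1.165 and Agap2 at 1.046, and Cdk4 itself at 0.468 to 1.42 times the neighbours over the 6 libraries. That difference was not tested. Only 2 genes of at least 5 kb lay within 1 Mb of Myc, D030024E09Rik at 1.10 and Pvt1, a long noncoding RNA gene, at 0.987. Neighbours of Met and Egfr were at 0.984 and 0.949, above the genes themselves. Of the genes flanking Met, Cav1, which encodes caveolin, stood at 0.959 and Capza2 at 0.704. Of those flanking Egfr, Sec61g, a gene of the protein translocon, stood at 0.724 and Eldr at 0.883.

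The 3 low neighbourhoods were those of Hras, Ccnd1 and Tert. Their medians were 0.652 (42 genes), 0.649 (9 genes) and 0.636 (26 genes), each at 0.8 or less in every library, where 16.9% of all genes had such neighbours. Within 1 Mb none of the 9 had neighbours at 1/1.5 or less in every library, where 3.19% of all genes did. Within 0.5 Mb 1 of 9 did, Hras with 31 neighbours at 0.590 to 0.646, where 3.62% of all genes did. Rnh1 and Lrrc56, the nearest genes to Hras, stood at 0.568 and 0.6285, LTO1 and Tpcn2 beside Ccnd1 at 0.7275 and 0.769, and Clptm1l and Slc6a18 beside Tert at 0.644 and 0.534. On chromosome 7 the neighbours matched the chromosome, at 0.9752 of its median around Hras and 0.970 around Ccnd1. Around Tert they were at 0.746 of the median of chromosome 13 and below it in each library, with a highest value of 0.802. Tert stood at 0.965 of its neighbours, so its low level was shared by the genes around it. No gene of the 9 was 1.5 times above or below its neighbours in every library, where 0.261% of genes were raised and 0.261% lowered, and the count stayed at 0 after GC matching, where 0.406% and 0.34% were.

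**Figure D4:**
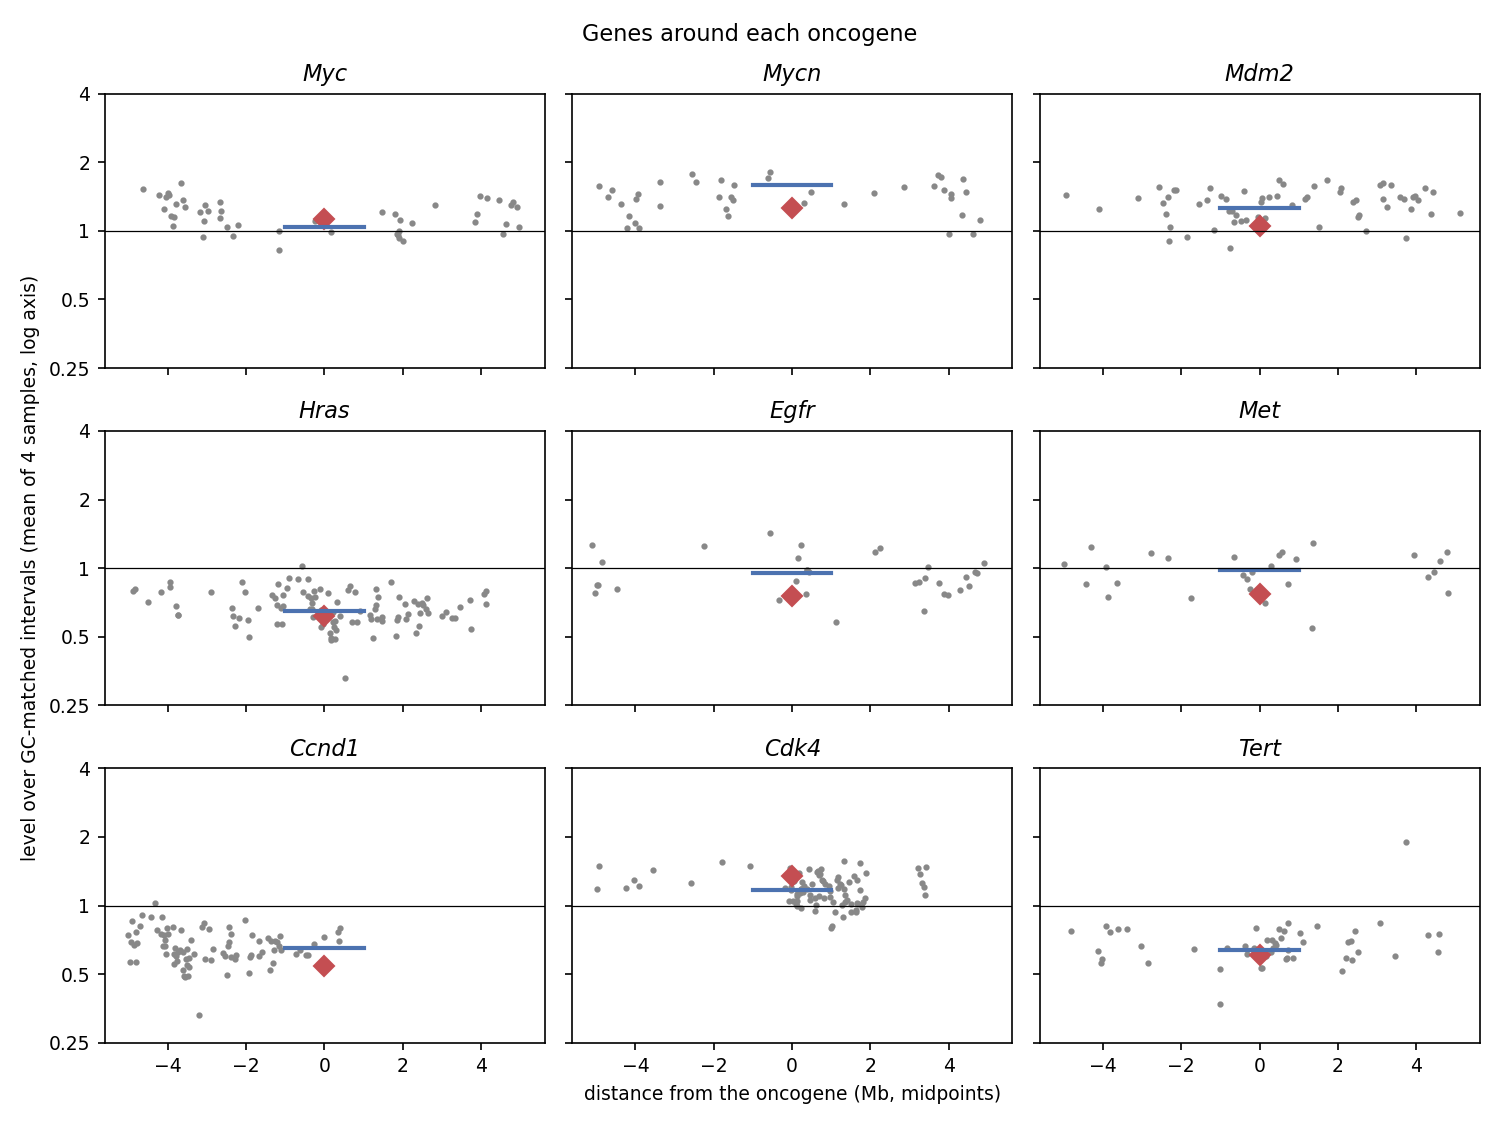
GC-matched level (mean of 4 samples, log axis) of autosomal genes of at least 5 kb within 5 Mb of each oncogene, against distance between midpoints in Mb. Red diamonds are the oncogenes, grey points other genes, and blue bars the median of genes within 1 Mb, which is 1.59 around Mycn and 0.636 around Tert.

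None of the 9 genes passed the test of dDAVP against vehicle. edgeR's quasi-likelihood test with Benjamini-Hochberg adjustment called 0 of 9, and 0 of all 30912 intervals tested (0%). Of the intervals tested, 236 had an unadjusted p under 0.05, all higher with dDAVP. With GC content as an offset edgeR called 0, with 175 higher and 110 lower at an unadjusted p under 0.05. DESeq2 called 0 as well, with 1082 at an unadjusted p under 0.05. The log2 ratio of dDAVP to vehicle was 1.365 ± 0.69 (SE) for Cdk4, 1.28 ± 0.63 for Mycn, 0.96 ± 0.54 for Myc, 0.92 ± 0.79 for Hras, 0.89 ± 0.67 for Ccnd1 and 0.64 ± 0.43 for Tert. It was −0.32 ± 0.38 for Mdm2, −0.50 ± 0.45 for Met and −0.63 ± 0.51 for Egfr (edgeR adjusted p = 0.657 for Mdm2 and 0.619 for the other 8). With 2 samples per group these intervals are wide, from −0.35 to 3.08 for Cdk4 and from −1.27 to 0.63 for Mdm2, so sizable changes cannot be told from none.

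Without dDAVP experiment 3 the ratios lay between −0.17 for Hras and 0.48 for Cdk4 (edgeR adjusted p = 0.9999), and this fit has 1 dDAVP sample, assumed to vary like the 2 vehicle samples. With GC content as an offset over all libraries the ratios lay between −0.63 for Hras and 0.44 for Cdk4. In dDAVP experiment 3 alone against vehicle, with the lone sample taken to vary like the vehicle group, edgeR called 23054 intervals (73.6%), and all 9 oncogenes were among them, Cdk4 at 1.93 and Egfr at −1.50. By level over the autosome median, the 3 dDAVP libraries all lay above the vehicle libraries for Myc and Tert, 2 of 9 where 14.3% of all genes did, and all below for Met, 1 of 9 where 15.2% did. By GC-matched level neither treatment stood clear of the other for any of the 9, where 7.51% and 5.3% of all genes had dDAVP wholly above or below. For a single level, 2 samples against 2 cannot give a two-sided exact permutation p below 0.333.

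**Figure D5:**
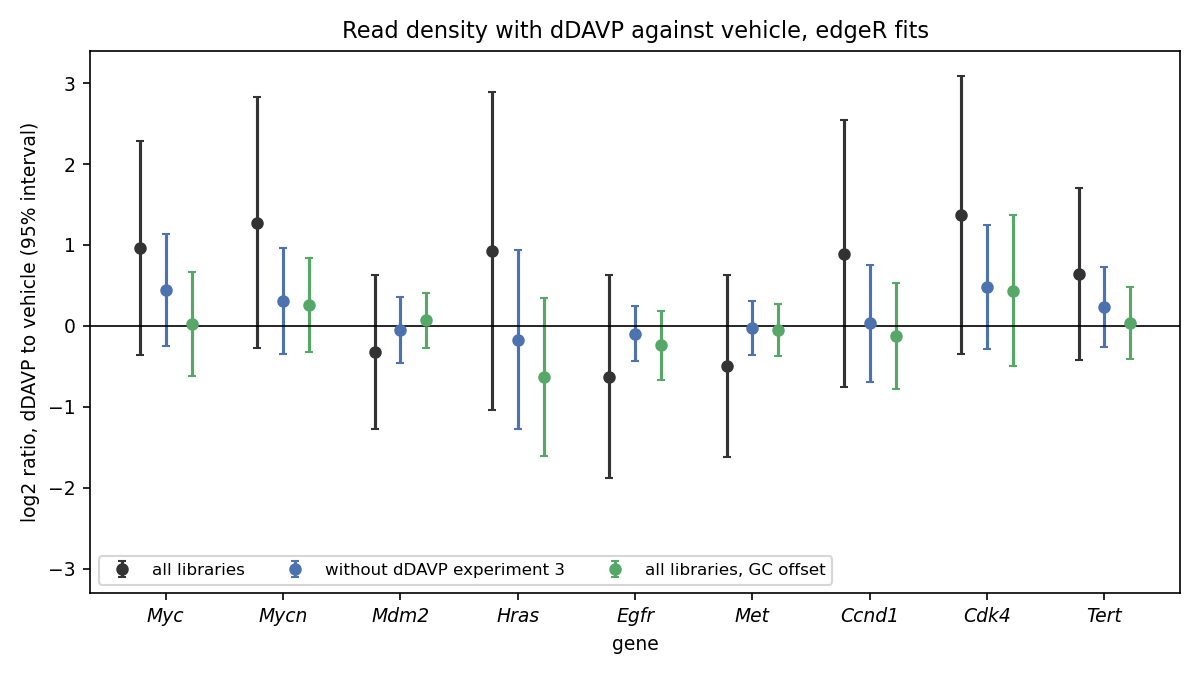
Log2 ratio of dDAVP to vehicle for each oncogene with its 95% interval, from edgeR over all libraries (black), without dDAVP experiment 3 (blue, 1 dDAVP sample assumed to vary like the vehicle samples) and over all libraries with GC content as an offset (green). Every interval includes 0, and the ratios of the 6 genes richer in GC are 0.64 to 1.365 in black and 0.48 or less in blue.

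A wider list of 60 genes of the same pathways, from the MYC network, RAS and RAF, receptor kinases and their ligands, PI3K and AKT, cyclins, telomerase, survival and other oncogenes, all had an interval, 58 of them on autosomes. None of the 60 was raised at 1.5 in every library against the autosome median, where 1.08% of autosomal genes were. None of those with a GC-matched level was raised against GC-matched intervals, where 2.07% were. Against the autosome median 2 of 58 autosomal genes were lowered, Rras2, a RAS relative, at 0.530 and Fgfr2, a fibroblast growth factor receptor, at 0.503, both on chromosome 7 like Hras and Ccnd1. The background share of autosomal genes was 1.44%. The 2 X-linked genes were also below that margin, Araf, a RAF kinase, at 0.366 and Dkc1, a telomerase partner, at 0.279, but stood at 1.325 and 0.845 of their own chromosome and were not lowered against it. Without dDAVP experiment 3, 8 of the 60 were lowered, 6 of them autosomal, where 4.87% of autosomal genes were. Against GC-matched intervals 4 of 57 autosomal genes were lowered, Rras2, Fgfr2, Igf1r (0.566, also chromosome 7) and Zbtb17 (0.604, chromosome 4), where 3.62% of all genes were. The last pair was named after its values were seen. The median level of its autosomal genes was 0.9685 against the autosome median and 0.9365 against GC-matched intervals, beside 1.06 and 1.02 over all autosomal genes. edgeR tested 59 of the 60 and called 0, with the smallest adjusted p at 0.619, 31 ratios above 0, 28 below and a median log2 ratio of 0.10.

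The genes whose levels tracked the extremes most closely were found by the root mean square difference of log2 level over the 6 libraries, among genes on other chromosomes. For Cdk4 these were Adcyap1 (0.245) and Fut4-ps1 (0.249) on chromosome 17 and Pck1 (0.2805) on chromosome 2, with GC contents of 48.7% to 52.2% beside 51.8% in Cdk4. For Ccnd1 they included Fhl3 (0.1905) on chromosome 4 and Pcdh1 (0.254) on chromosome 18, with GC contents of 54.35% and 51.7% beside 53.4% in Ccnd1. Median GC-matched levels of chromosomes 4 and 18 were 0.662 and 0.6895, beside 0.6685 for chromosome 7 with Ccnd1. Those of chromosomes 17 and 2 were 1.10 and 1.02, beside 1.225 for chromosome 10 with Cdk4. These genes were picked for like levels, so their GC content and chromosome levels are no separate evidence on Cdk4 or Ccnd1. The part of the chromosome level in these matches was not tested. RefSeq promoters of GRCm38.p6, 250 bases before to 50 after the start, were matched for 7 of the 9 genes, and all 7 were richer in GC than the median of 32851 promoters, at 56.7% in Mycn to 75.7% in Met beside 52.7%. The promoter of Mdm2 held 35 CpG pairs and those of Met and Hras 34 each, where the median promoter held 7. Cdk4 held 22, Egfr and Tert 15 each and Mycn 14. Composition at the promoter and over the interval thus ran differently in Met, whose interval was the poorest in GC of the 9. Egfr and Mdm2 were alike in this, with promoters at 62.3% and 64.7% beside intervals at 42.0% and 42.6%.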

How the data were processed

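Per the labels' protocols, chromatin fixed in 1.11% formaldehyde was sheared to about 300 bp, and 50-bp reads were aligned to mm10 by BWA. The submitters' processing notes also name SAMtools and bedtools. Whether duplicates or poorly mapped reads were removed is not given in the sources used here. The deposited count is the number of reads overlapping each RefSeq transcript interval, without strand and not normalized, and the deposited fraction is the share of its bases with a read, as the values show. Of 33063 intervals 1 had no row in vehicle experiment 2 and was dropped, and 99.1% of the others matched a symbol in RefSeq or GENCODE vM21 tables of GRCm38.p6, whose chromosomes are those of mm10 and from which GC content and sequences were read.

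Levels were computed in Python 3.11.15 with numpy 2.4.6 and pandas 2.3.3. Counts of experiments 1 and 2 of each group were summed, or their levels averaged, after a chi-square comparison over intervals with at least 40 reads. dDAVP was compared with vehicle in edgeR 4.0.16 (R 4.3.3; TMM, filterByExpr, two-sided quasi-likelihood test, adjusted p under 0.05) on all intervals, and DESeq2 1.42.0 was the alternative. Both steps were also run on simulated data, and the outcome is not reported here. Those runs are thus no measure of how often the rule would find a gain at the margin in short intervals with few reads. Intervals of 95% for summed reads are exact Poisson intervals and cover counting error only. With 11 to 120 reads per library on Cdk4 and 495 to 1672 on Egfr, precision differs widely among the genes. Other alternatives changed the margin, the reference intervals, the measure and the libraries. The genes, the wider list and the tests were chosen with earlier results of these data known. Named genes are the 9, the nearest gene of at least 5 kb on each side, wider list genes past a margin in every library, and the 3 genes most alike the highest and lowest of the 9. Of the last, 1 gene is not reported here.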

Additional observations from a re-analysis of the deposited data

How the results depend on the processing

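The levels of all 9 oncogenes moved by less than 1 SD under each of 13 alternatives against either reference, an SD that is wide where dDAVP experiment 3 stands apart. With the margin applied to the mean over samples, 2 genes were raised (Cdk4 and Mycn) and 2 lowered (Hras and Ccnd1) against the autosome median, where 10% and 8.28% of all genes were. By that mean 3 were lowered against GC-matched intervals (Hras, Tert and Ccnd1), where 10.3% were. In the vehicle libraries alone 2 were lowered against the autosome median, where 7.18% were, and 1, Tert, against its chromosome, where 1.79% were. With 1 library left out, lowered counts ranged from 0 to 2 against the autosome median and from 0 to 1 against GC-matched intervals. They were Hras and Tert without dDAVP experiment 3 (4.87% of all genes), Ccnd1 without vehicle experiment 2 (4.09%) and Tert without vehicle experiment 3 (3.91%). At a margin of 5/4, 1 was lowered against GC-matched intervals, where 11.3% of all genes were. Of the 60 genes of the wider list, 2 were raised against the autosome median at a margin of 5/4, where 4.96% of autosomal genes were. By the mean 2 were raised and 9 lowered, where 10% and 8.28% of autosomal genes were. By the rule used 4 were lowered, where 1.44% were. The 9 and the 4 both include the 2 X-linked genes, which these shares do not cover. Leaving out 1 library gave 4 to 8 lowered, the 8 without dDAVP experiment 3, where 4.87% of autosomal genes were. The edgeR test called 0 intervals in every fit but that of dDAVP experiment 3 alone against vehicle, which called 23054. With the GC offset the log2 ratio turned to 0.0697 for Mdm2, −0.63 for Hras and −0.13 for Ccnd1, and leaving out 1 library moved that of Hras from −0.17, without dDAVP experiment 3, to 1.147. The cause was not tested.

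Experiment numbers were not taken as pairs, since the deviations of same-numbered libraries from their group means correlated at −0.38, −0.40 and −0.60. Those signs follow in part from centring on 3 libraries of which experiment 3 stood apart in both groups, so a structure shared by experiment number was not tested. With the replicate block edgeR called 0 intervals, with 22 higher and 188 lower at an unadjusted p under 0.05, while block and GC offset together gave log2 ratios of 0.0724 for Mdm2, −0.64 for Hras and −0.10 for Ccnd1.

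A level is relative to the typical interval of this line, so a change of the whole genome's copy number does not show. Low read numbers on Hras, Cdk4, Ccnd1 and Myc limit what a single library can show.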

Other observations

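A few genes of the wider list lay high on whole intervals of 24.98 to 77.99 kb, and were named after their values were seen. The growth factor genes Igf1 (chromosome 10) and Egf (chromosome 3) and Max (chromosome 12), the partner of MYC, were at 5/4 or more of GC-matched intervals in every library, with means of 1.55 ± 0.09, 1.41 ± 0.16 and 1.43 ± 0.13 (SD, n = 4). They were the 3 of 57 autosomal genes of the list past that margin, a smaller share than the 9.13% of all genes. Igf1 shares chromosome 10 with Mdm2 and Cdk4, and Max shares chromosome 12 with Mycn. Against the median interval of their own chromosomes, without GC matching, the means of Igf1, Egf and Max were 1.20, 1.13 and 1.06. Median GC-matched levels of chromosome 10 with Igf1, chromosome 3 with Egf and chromosome 12 with Max were 1.225, 1.34 and 1.41 (mean of 4 samples). Without GC matching Igf1 was at 0.791 of the autosome median in dDAVP experiment 3. Lowered at the same margin were 10 of the 57, where 11.3% of all genes were.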
